A study of Mus musculus with 6 samples.

Results

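The genes of oxidative phosphorylation were followed in embryonic mouse pancreata between 13.5 and 15.5 days post coitum (dpc). They are the structural subunits of the 5 complexes of the mitochondrial inner membrane, together with cytochrome c, and were taken by their gene symbols, with no measured value in the rule. Of the 37224 genes of the table, 101 were taken, 88 of them encoded in the nucleus and 13 in mitochondrial DNA, whose symbols start with mt-. The nuclear genes comprised 36 of complex I, 4 of complex II, 9 of complex III, 20 of complex IV, 18 of complex V and the somatic cytochrome c gene *Cycs*. Assembly factors and 11 pseudogenes were left out. *Ndufa4* and *Ndufa4l2* carry complex I names but were placed with complex IV.

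All samples were whole wild-type (wt) C57/Bl6J pancreata, 3 at 13.5 dpc and 3 at 15.5 dpc, with no treatment or transgene named in their labels. Each sample held the pancreata of up to 3 embryos, so a value is a mean over the cell types of the organ, and a change in cell numbers and a change in RNA per cell cannot be told apart. The interval spans the secondary transition, when acinar and endocrine cells are formed from epithelial progenitors. The stages were compared to see whether the nuclear and the mitochondrial genes of the respiratory chain moved together.

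Complex I (NADH dehydrogenase) and complex II (succinate dehydrogenase) pass electrons from nutrients to ubiquinone. Complex III passes them to cytochrome c and complex IV (cytochrome c oxidase) to oxygen, and complex V (ATP synthase) uses the resulting proton gradient to make ATP. Mitochondrial DNA encodes core subunits of every complex except complex II and is transcribed by its own polymerase, whereas the remaining subunits are made in the cytosol and imported.

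Copies of mitochondrial DNA lie in the nuclear genome, which matters for the reading of the mt- genes, since the authors counted only reads with a unique place in the genome. An annotated stretch of such pseudogenes on the minus strand of chromosome 1 (mm10) matched 7 mt- genes. *Gm28661* (chr1:24614885-24615565) is the copy of *mt-Co2* and *Gm29216* (chr1:24615706-24616197) that of the end of *mt-Co1*. The first 60 bases of *mt-Co2* with its copy, and bases 1063 to 1122 of *mt-Co1* with its copy, are shown because they mark how little separates the genes. Capitals mark the only difference found in the aligned part of either pair, A1066T, counted from the first base of *mt-Co1*, with the mitochondrial base named first. The sequences are those of GENCODE transcripts, 5′ to 3′.

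mt-Co2: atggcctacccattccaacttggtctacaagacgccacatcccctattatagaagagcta
Gm28661: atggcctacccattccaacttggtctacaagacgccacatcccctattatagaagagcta
mt-Co1: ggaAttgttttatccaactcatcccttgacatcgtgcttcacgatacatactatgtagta
Gm29216: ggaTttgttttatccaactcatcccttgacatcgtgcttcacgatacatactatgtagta

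Promoters of nuclear genes of the chain are known to carry sites of NRF1, of ETS factors such as GABP, and of YY1. Of the 88 nuclear genes, 69 had 1 or 2 RefSeq promoter windows of 300 bases (GRCm38.p6), and a motif was counted once per gene. The core of the NRF1 motif, GCATGCGC, was found on either strand in 11 of the 69 genes (15.9%), against 4.15% of all 16177 genes with a window. The ETS motif CCGGAAG was found in 16 (23.2% against 13.5%) and the YY1 motif AAGATGGC in 9 (13.04% against 3.68%). At least 1 of the 3 motifs was present in 30 of the 69 genes (43.5%), against 19.5% of all genes. The NRF1 core is nearly its own reverse complement, so matches on both strands can overlap, and a match describes the sequence and not binding. Stretches of 170 bases are shown for *Uqcr11* (chr10:80406822-80406991), *Cox6a1* (chr5:115348959-115349128) and *Atp5k* (chr5:108434400-108434569), whose expression is described below. All are on the minus strand and capitals mark whole motifs.

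Uqcr11: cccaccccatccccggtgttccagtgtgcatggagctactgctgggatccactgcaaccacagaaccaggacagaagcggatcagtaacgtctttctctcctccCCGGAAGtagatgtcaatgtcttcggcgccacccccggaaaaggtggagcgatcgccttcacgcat
Cox6a1: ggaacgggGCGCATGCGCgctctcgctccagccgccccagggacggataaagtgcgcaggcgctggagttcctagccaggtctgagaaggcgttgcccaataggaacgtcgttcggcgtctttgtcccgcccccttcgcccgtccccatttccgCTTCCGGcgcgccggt
Atp5k: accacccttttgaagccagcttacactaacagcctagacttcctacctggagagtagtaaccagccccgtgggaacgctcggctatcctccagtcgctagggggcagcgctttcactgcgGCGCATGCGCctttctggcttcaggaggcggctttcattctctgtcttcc

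In *Uqcr11* the ETS motif lies from -66 to -60 relative to the RefSeq start, and an NRF1 core from -4 to 3 runs past the stretch shown. In *Cox6a1* the NRF1 cores of both strands lie from -162 to -153 and the ETS motif, read on the other strand, from -16 to -10. In *Atp5k* those of both strands lie from -50 to -41, and an ETS motif from 12 to 18 lies past the stretch shown.

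The total counts per sample were 10546028 to 16389237. Replicate 1 of 15.5 dpc stood apart, with the lowest normalisation factor of 0.847 against 0.953 to 1.08 in the others, and with counts that rose as genes became shorter. Over all genes tested, the Spearman correlation of exon length with the ratio of 15.5 dpc replicate 1 to replicate 2 was -0.59 (15566 genes, which share the same pair of libraries). Genes of the chain are short, with a median exon length of 1240 bases for the nuclear genes tested against 3471 for all genes tested. Values are therefore also given without this sample and with the trend of each library with exon length removed. The acinar markers summed to 95044 to 114136 normalised counts at 13.5 dpc and to 611731 to 1314410 at 15.5 dpc. All 9 were up-regulated (edgeR's quasi-likelihood test, adjusted p at or below 0.05), next to 11.6% of all genes. Mesenchyme markers summed to 121465 to 137457 and 89800 to 133299, and erythroid markers to 13028 to 14661 and 15612 to 43916. The part of these cell types in the results below was not tested.

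Transcripts of the nuclear genes were higher at 15.5 dpc relative to those of the mitochondrial genes in every sample. The counts of the 88 nuclear genes, summed, were 1.09, 1.13 and 1.25 times those of the 13 mt- genes in 13.5 dpc replicates 1, 2 and 3. At 15.5 dpc the ratio was 1.796, 1.41 and 1.66. The lowest 15.5 dpc sample thus lay above the highest 13.5 dpc sample, and the mean ratio went from 1.15 ± 0.0824 to 1.62 ± 0.193 (SD, n = 3). This ratio does not depend on the scaling of the libraries.

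Neither side of the ratio separated the stages by itself. The nuclear genes took 1.28%, 1.27% and 1.18% of all counts at 13.5 dpc and 1.85%, 1.26% and 1.51% at 15.5 dpc. Replicate 2 of 15.5 dpc lay within the range of the earlier stage. The mt- genes took 1.18%, 1.12% and 0.949% at 13.5 dpc and 1.03%, 0.894% and 0.912% at 15.5 dpc, where the ranges overlapped. The exact binomial 95% confidence intervals of these shares, such as 1.84% to 1.86% for the nuclear genes in 15.5 dpc replicate 1 and 0.889% to 0.900% for the mt- genes in replicate 2, cover counting error only.

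**Figure D1:**
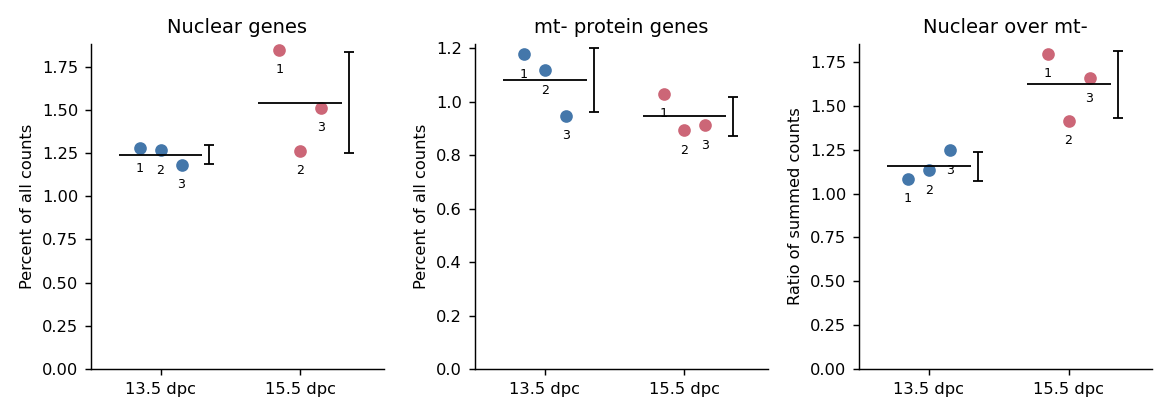
Percent of all counts on the 88 nuclear genes (left) and the 13 mt- protein genes (middle), and the ratio of their summed counts (right), at 13.5 and 15.5 dpc. Points are samples with their replicate number, lines are means and bars are SD (n = 3); the ratios of the 15.5 dpc samples (1.41 to 1.796) all lie above those of the 13.5 dpc samples (1.09 to 1.25).

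Counts were tested gene by gene with edgeR's quasi-likelihood test over the 15578 genes that passed a filter on low counts, which 84 of the 88 nuclear and 10 of the 13 mt- genes did. The nuclear genes differed between stages as a body more than as individual calls. The log2 fold change, 15.5 over 13.5 dpc, was above 0 in all 84, against 48.9% of all genes tested, and its median was 0.60 (a fold of 1.52), against -0.01 for all genes. The single values ran from 0.01 (*Cox6b2*) to 1.74 (*Ndufa4l2*). At an adjusted p at or below 0.05, 9 of the 84 were up-regulated (10.7%), next to 11.6% of all genes tested, so the share called was near that of the background. None of the 84 was called lower, against 10.7% of all genes. At an unadjusted p below 0.05, 61 were higher and 0 lower, against 20.2% and 18.9% of all genes. DESeq2 called 45 higher and 0 lower, against 15.2% and 12.2%.

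In 52 of the 84 (61.9%) every 15.5 dpc sample lay above every 13.5 dpc sample, against 22.8% of all genes tested, and in none did every 15.5 dpc sample lie below, against 23.6% of all genes. With the study's own thresholds (adjusted p up to 0.1, a level above 100 normalised counts at 13.5 or 15.5 dpc, and a fold above 1.6) 24 were higher, against 6.30% of all genes, and 0 lower, against 3.58%.

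The samples of 15.5 dpc did not contribute equally. Replicate 1 was the highest of all 6 samples in 82 of the 84 nuclear genes, against 35.4% of all genes, and it lay above all 13.5 dpc samples in 84. Replicate 3 lay above all 13.5 dpc samples in 80 and replicate 2 in 53. The share of all genes above all 13.5 dpc samples was not counted for single replicates. Without replicate 1 the median log2 fold change was 0.29, 82 of 84 stayed above 0, and 25 were called higher, next to 14.1% of all genes. Without replicate 2 the median was 0.83 and 78 were called higher, next to 24.7% of all genes. With any of the other 4 samples left out 2 were called, and these were *Cox7a1* and *Ndufa4l2* each time, next to 4.54% to 5.40% of all genes.

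Exon length was examined in classes of protein-coding genes. Among genes of up to 500 bases the median log2 fold change was 0.60 for the 6 nuclear genes of the chain and 0.53 for the 48 others. From over 500 to 1000 bases it was 0.68 (27 genes) and 0.45 (421 others). From over 1000 to 2000 bases it was 0.60 (27 genes) and 0.24 (2047 others), and above 2000 bases 0.53 (24 genes) and -0.08 (11401 others). The median of the nuclear genes thus lay above that of the others in every length class, by least in the shortest genes. Single nuclear genes lay below the median of the others, such as *Cox6b2* (0.01) and *Ndufs5* (0.29) in the class from over 500 to 1000 bases. The 7 mt- genes with at least 100 counts in every sample all lay below the median of the others in their class. *mt-Nd1* was at 0.22 and *mt-Nd6* at 0.21 in the class from over 500 to 1000 bases, and the median was 0.10 for the 5 genes from over 1000 to 2000 bases.

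When the length trend was removed from each library, the median of the 84 nuclear genes was 0.33, of 0.60 without the removal, and 82 were above 0 (97.6%, against 50.3% of all genes). Of the 84, 36 were called higher (42.9%, next to 18.0% of all genes) and 1 lower, *Cox6b2* (next to 15.0%), and 58 had every 15.5 dpc sample above every 13.5 dpc sample (next to 25.9%). All 9 genes called without this correction were among the 36. Removal by the length of the principal transcript gave 38 higher (19.1% of all genes), 1 lower (16% of all genes) and a median of 0.28. The count of 36 fell to 6 or 7 when any 1 sample other than 15.5 dpc replicates 1 and 2 was left out as well, next to 10.6% to 11.6% of all genes.

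**Figure D2:**
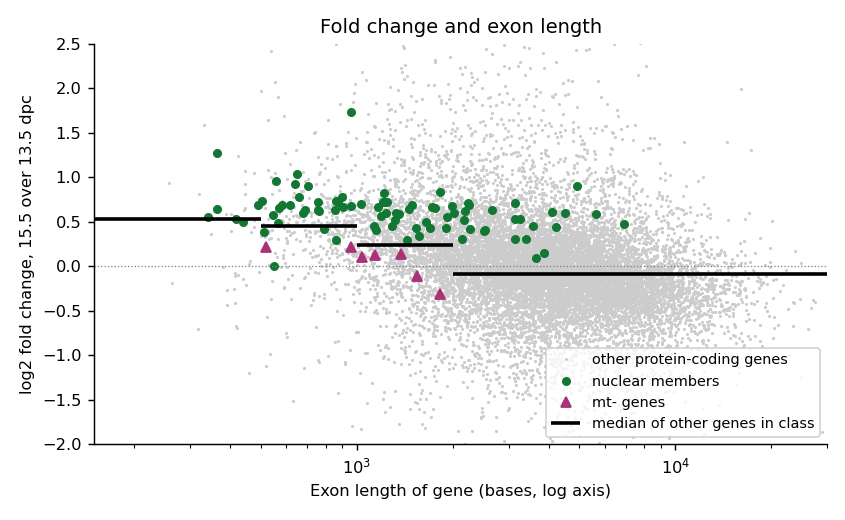
Log2 fold change, 15.5 over 13.5 dpc, against exon length (bases, log axis) for other protein-coding genes tested (grey), the 84 nuclear genes of oxidative phosphorylation (green) and the 7 mt- genes with at least 100 counts in every sample (purple). Black lines are medians of the other genes in 4 length classes, from 0.53 in the shortest to -0.08 in the longest; most green points lie above the line of their class and the purple ones below it. Points beyond the axis limits are not drawn.

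Among the 36 nuclear genes of complex I the median log2 fold change was 0.63 and all were above 0. *Ndufb9* and *Ndufa6*, accessory subunits of the complex, were up-regulated, next to 11.6% of all genes, and the other 34 did not pass the test. *Ndufb9* (chr15:58933756-58939488) gave 1413, 1441 and 1317 normalised counts at 13.5 dpc and 4192, 1842 and 2549 at 15.5 dpc. All 15.5 dpc samples lay above the others, and the log2 fold change was 1.04 (SE 0.27, edgeR adjusted p = 0.033). It was 0.66 without 15.5 dpc replicate 1 and 0.62 with the length trend removed. Its level was 2136 normalised counts per kb of exon at 13.5 dpc.

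*Ndufa6* gave 1096, 1013 and 1037 normalised counts at 13.5 dpc and 2941, 1352 and 1841 at 15.5 dpc (log2 fold change 0.96, SE 0.26, edgeR adjusted p = 0.036). The stages did not overlap, and the value was 0.61 without 15.5 dpc replicate 1 and 0.53 with the length trend removed. The lowest value of the nuclear genes of complex I was that of *Ndufs1*, the largest iron-sulphur subunit, with 1586, 1612 and 1556 normalised counts at 13.5 dpc and 1747, 1637 and 1671 at 15.5 dpc. Its samples did not overlap either, but the log2 fold change of 0.09 (SE 0.08, edgeR adjusted p = 0.44) did not pass the test. Of the 36, 14 were called higher and 0 lower with the length trend removed (18.0% and 15.0% of all genes), and 35 were above 0 (50.3%).

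Complex II is encoded in the nucleus only. None of its 4 genes passed the test with edgeR, although 3 were higher at an unadjusted p below 0.05 (20.2% of all genes) and DESeq2 called 2 higher (15.2%). In all 4 every 15.5 dpc sample lay above every 13.5 dpc sample (22.8% of all genes). *Sdha*, the flavoprotein that oxidises succinate, was nearly level within each stage, at 3745, 3694 and 3727 normalised counts at 13.5 dpc and 4112, 4084 and 4177 at 15.5 dpc. Its log2 fold change was 0.15 (SE 0.08, edgeR adjusted p = 0.20).

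*Sdhb*, the iron-sulphur subunit, gave 1513, 1518 and 1490 at 13.5 dpc and 3346, 1759 and 2303 at 15.5 dpc, a wider spread at the later stage (log2 fold change 0.71, SE 0.21, edgeR adjusted p = 0.052). The membrane anchors *Sdhc* and *Sdhd* had log2 fold changes of 0.53 and 0.45 (edgeR adjusted p = 0.086 and 0.089). *Sdha* (0.20), *Sdhb* (0.58) and *Sdhc* (0.53) were called higher with the length trend removed, next to 18.0% of all genes. Their edgeR adjusted p were 0.042, 0.018 and 0.045.

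Complex III had 3 of its 9 genes up-regulated, next to 11.6% of all genes, and in 7 of the 9 every 15.5 dpc sample lay above every 13.5 dpc sample (22.8% of all genes). *Uqcrc2*, a core subunit, showed the smallest change of the 9, with 3114, 3074 and 2975 normalised counts at 13.5 dpc and 4040, 3871 and 4165 at 15.5 dpc. Its log2 fold change was 0.40 (SE 0.08, edgeR adjusted p = 0.015), and 0.40 without 15.5 dpc replicate 1. *Cyc1*, the haem-bearing cytochrome c1, gave 2473, 2381 and 2497 at 13.5 dpc and 4318, 2956 and 3567 at 15.5 dpc (0.56, SE 0.14, edgeR adjusted p = 0.030), and its value was 0.29 with the length trend removed.

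*Uqcr11*, a small accessory subunit whose promoter is shown above, gave 1054, 1033 and 992 normalised counts at 13.5 dpc and 2708, 1360 and 1772 at 15.5 dpc. Its log2 fold change of 0.92 (SE 0.23, edgeR adjusted p = 0.029) was the highest of the 9, and became 0.61 without 15.5 dpc replicate 1 and 0.52 with the length trend removed. *Uqcr10*, at 2184 normalised counts per kb of exon at 13.5 dpc and 3530 at 15.5 dpc, had a log2 fold change of 0.69 (edgeR adjusted p = 0.095). Removal of the length trend gave 6 of the 9 higher and 0 lower, next to 18.0% and 15.0% of all genes.

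Somatic cytochrome c, *Cycs*, had low counts, at 30.1, 48.0 and 32.3 normalised counts at 13.5 dpc and 62.3, 34.8 and 41.6 at 15.5 dpc. The stages overlapped (log2 fold change 0.31, SE 0.29, edgeR adjusted p = 0.44). Cut into windows of 50 bases, 28.5% of its principal transcript is found in transcripts of other genes too, so that its counts are uncertain.

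Complex IV has tissue isoforms for several of its nuclear subunits, and the calls fell on isoforms of low level. Of 20 genes, 16 were tested and 2 were up-regulated, a share near the 11.6% of all genes, with a median log2 fold change of 0.62. *Ndufa4l2* (chr10:127514967-127517154), a paralogue of *Ndufa4* known to be induced under low oxygen, gave 50.1, 76.3 and 73.3 normalised counts at 13.5 dpc and 273, 162 and 238 at 15.5 dpc. All 15.5 dpc samples lay well above the others. The log2 fold change was 1.74 (SE 0.24, edgeR adjusted p = 0.0036), a fold of 3.34, and 1.57 without 15.5 dpc replicate 1. Per kilobase of principal transcript it stood at 71.3 normalised counts at 13.5 dpc and 240 at 15.5 dpc, far below *Ndufa4* at 3175 and 5123. *Ndufa4* itself had a log2 fold change of 0.69 (edgeR adjusted p = 0.098).

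*Cox7a1* (chr7:30184144-30186078), known as the isoform of heart and skeletal muscle, gave 103, 115 and 115 normalised counts at 13.5 dpc and 361, 209 and 242 at 15.5 dpc, with no overlap. Its log2 fold change was 1.28 (SE 0.21, edgeR adjusted p = 0.0067), a fold of 2.43, and 1.02 without 15.5 dpc replicate 1 and 0.83 with the length trend removed. *Cox7a2*, the widely expressed form, stood at 2247 normalised counts per kb of principal transcript at 13.5 dpc against 282 for *Cox7a1*, with a log2 fold change of 0.72 (edgeR adjusted p = 0.086). *Cox7a2l*, which takes part in supercomplex assembly, had 0.40 (edgeR adjusted p = 0.22).

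Of 10 striated muscle markers 7 were tested and 1 was up-regulated, *Actc1*, next to 11.6% of all genes. At an unadjusted p below 0.05, 3 were higher and 0 lower (20.2% and 18.9% of all genes). *Actc1*, an actin of heart and embryonic skeletal muscle, had a log2 fold change of 1.37 (edgeR adjusted p = 0.021). *Myh3*, the embryonic myosin heavy chain, had 1.57 and *Acta1*, the skeletal actin, 0.72 (edgeR adjusted p = 0.055 and 0.090). In these 3 genes every 15.5 dpc sample lay above every 13.5 dpc sample (22.8% of all genes). They were highest in 15.5 dpc replicate 2, where *Cox7a1* was lowest of its stage. *Tnnt2*, *Tnnt3* and *Myl4* had 0.14, 0.15 and 0.23 (edgeR adjusted p = 0.63, 0.73 and 0.46), with overlap between stages. The markers summed to 1484 to 1554 normalised counts at 13.5 dpc and to 1224 to 1495 at 15.5 dpc, most of which was *Des*, the desmin gene, with 1351 to 1395 and 883 to 1283 (log2 fold change -0.32, edgeR adjusted p = 0.13). Their part in the result for *Cox7a1* was not tested. The other muscle isoforms were at or near 0. *Cox6a2* had 0 counts in each 13.5 dpc sample and 5.54, 1.02 and 2.52 normalised counts at 15.5 dpc. *Cox8b* was at 3.07 normalised counts or less in every sample, and the testis isoform *Cox8c* had 0 counts in all 6, which allows up to 3 counts in each. None of these was tested, nor was *Cox7b2*, at 1.26 normalised counts or less.

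*Cox4i1*, a subunit found in most tissues, had the highest level of the nuclear genes of complex IV per kilobase of principal transcript, with 6960 normalised counts per kb at 13.5 dpc and 10564 at 15.5 dpc. Its counts of 5626, 5346 and 5001 at 13.5 dpc and 11386, 5571 and 7287 at 15.5 dpc overlapped between stages (log2 fold change 0.60, SE 0.24, edgeR adjusted p = 0.11). *Cox4i2*, the isoform of lung, stood at 62.7 and 85.0 normalised counts per kb (0.42, edgeR adjusted p = 0.27).

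*Cox6a1*, whose promoter is shown above, gave 2320, 2203 and 2231 normalised counts at 13.5 dpc and 6287, 2709 and 3643 at 15.5 dpc. The stages did not overlap, and the log2 fold change of 0.90 (SE 0.28, edgeR adjusted p = 0.056) missed the threshold. It passed at 0.49 with the length trend removed (edgeR adjusted p = 0.021). *Cox6b1* and *Cox8a* had 0.74 and 0.58 (edgeR adjusted p = 0.086 and 0.078).

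*Cox6b2*, known as the testis isoform, gave the lowest value of all nuclear genes tested. Its 196, 201 and 174 normalised counts at 13.5 dpc and 228, 147 and 200 at 15.5 dpc overlapped, and the log2 fold change was 0.01 (SE 0.17, edgeR adjusted p = 0.98). With the length trend removed it was -0.38 and was called lower (edgeR adjusted p = 0.026), with the opposite direction to the other 15 nuclear genes of the complex tested. Under that setting 4 of the 16 genes were called higher, *Ndufa4l2*, *Cox7a1*, *Cox6a1* and *Cox7b*, next to 18.0% of all genes.

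**Figure D3:**
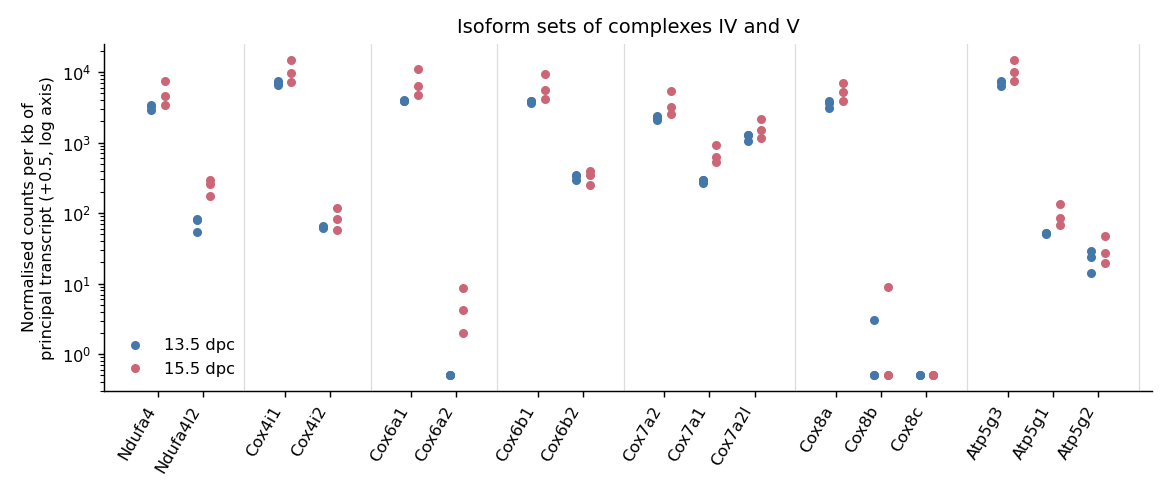
Normalised counts per kilobase of principal transcript (+0.5, log axis) for isoform sets of complexes IV and V, with the 3 samples of 13.5 dpc in blue and of 15.5 dpc in red. *Ndufa4l2* and *Cox7a1* show no overlap between stages at a level far below *Ndufa4* and *Cox7a2*, while *Cox6b2* overlaps and *Cox8c* is at 0 in all samples.

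*Atp5b*, the catalytic beta subunit of complex V, stood at 10136 normalised counts per kb of principal transcript at 13.5 dpc and 13757 at 15.5 dpc. Its counts of 19579, 19721 and 18960 at 13.5 dpc and 29720, 22893 and 26462 at 15.5 dpc did not overlap, and it was up-regulated (log2 fold change 0.44, SE 0.12, edgeR adjusted p = 0.035). *Atp5a1*, the alpha subunit, gave 14551, 14649 and 14424 and then 18987, 16721 and 18317 (0.31, SE 0.09, edgeR adjusted p = 0.0503), without overlap but just outside the threshold.

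Subunit c, which forms the rotor ring, is made from 3 genes that encode the same mature protein. *Atp5g1* was up-regulated, with 241, 235 and 244 normalised counts at 13.5 dpc and 638, 316 and 393 at 15.5 dpc (log2 fold change 0.90, SE 0.24, edgeR adjusted p = 0.038). Without 15.5 dpc replicate 1 the value was 0.56. *Atp5g1* stood at 50.8 normalised counts per kb of principal transcript at 13.5 dpc against 6964 for *Atp5g3*. These transcripts differ in length, with 4715 and 723 bases, and the mean normalised counts at 13.5 dpc were 240 and 5035. Of the windows of *Atp5g1* 11.1% are shared with transcripts of other genes, so its level may be underestimated. *Atp5g3* had a log2 fold change of 0.62 (edgeR adjusted p = 0.091), with no overlap between stages. *Atp5g2* had 10.1 to 34.6 normalised counts per sample, but 87.4% of its windows are shared with transcripts of other genes, so that its level is uncertain.

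*Atpif1*, the inhibitor of the synthase, gave 2511, 2353 and 2190 normalised counts at 13.5 dpc and 3728, 2127 and 2794 at 15.5 dpc. The stages overlapped, and its log2 fold change of 0.29 (SE 0.19, edgeR adjusted p = 0.29) was the lowest of the 18 nuclear genes. *Atp5k*, a membrane subunit whose promoter is shown above, gave 1051, 1075 and 908 and then 2441, 970 and 1495, with overlap (0.69, SE 0.30, edgeR adjusted p = 0.13). Of the 18 genes 2 were up-regulated, near the 11.6% of all genes, and 9 were called higher and 0 lower with the length trend removed (18.0% and 15.0% of all genes). *Atp5l* had at most 19.4 normalised counts in any sample, and 84.8% of its windows are shared.

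**Figure D4:**
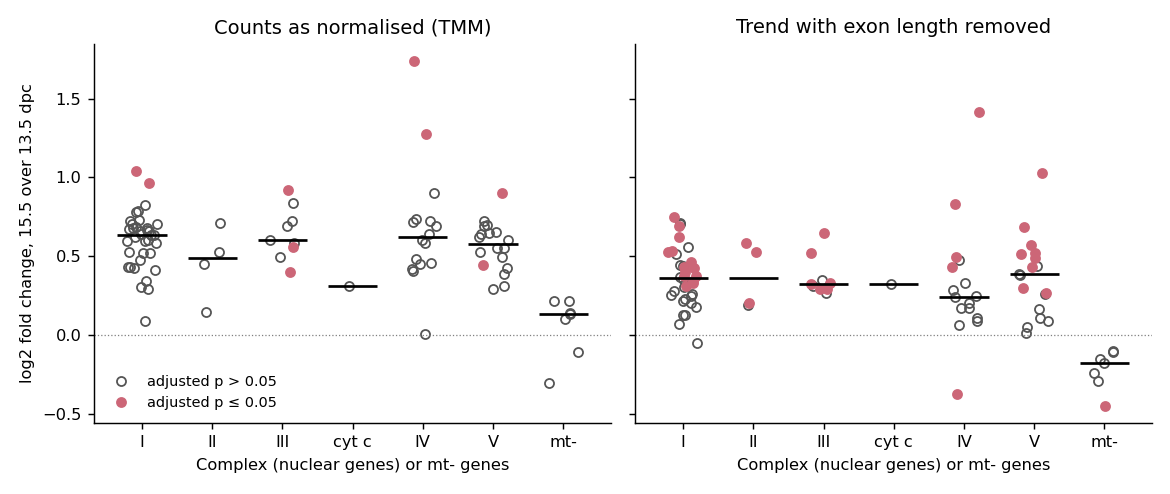
Log2 fold change, 15.5 over 13.5 dpc, of the 84 nuclear genes tested, by complex, and of the 7 mt- genes with at least 100 counts in every sample, as normalised (left) and with the trend with exon length removed (right). Filled points have an adjusted p at or below 0.05 and lines are medians; the 9 filled points on the left are all above 0, and on the right *Cox6b2* of complex IV and *mt-Nd5* are filled below 0, where the median of the 7 mt- genes goes from 0.13 to -0.18.

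The 13 mt- genes were either well counted or had almost no counts. At least 100 counts in every sample were found for *mt-Nd1*, *mt-Nd2*, *mt-Nd4*, *mt-Nd5* and *mt-Nd6* (complex I), *mt-Cytb* (complex III) and *mt-Co1* (complex IV). The other 6 genes, summed, had 63 to 116 counts per sample, of 96210 to 155462 on all 13. *mt-Co2* had 21 to 43 counts per sample, *mt-Atp6* 19 to 47, *mt-Co3* 14 to 39, *mt-Nd3* 1 to 4, *mt-Nd4l* 0 to 2 and *mt-Atp8* 0 to 1.

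Of the 6 low genes, 5 have annotated copies on chromosome 1. *mt-Co2*, *mt-Atp6*, *mt-Co3* and *mt-Nd4l* were identical to *Gm28661*, *Gm10925*, *Gm28437* and *Gm10222* over every aligned base, and *mt-Nd3* differed from *Gm28438* only by T3C, counted from its first base. From 98.0% to 100% of their windows are shared with other genes. *mt-Nd1*, *mt-Nd6* and *mt-Cytb* share 0% of their windows. *mt-Nd4* is identical to *Gm28439* over its first 876 bases and shares 62.2%, and *mt-Co1* shares 51.1%. *mt-Atp8* shares 0% of its windows with annotated transcripts. On mitochondrial DNA it follows *mt-Co2* and precedes *mt-Atp6*, whose copies *Gm28661* and *Gm10925* (chr1:24613974-24614651) have a gap between them. The genome sequence of this gap and around the copies was not searched, so a copy of *mt-Atp8* there was not tested. Of the 7 copies only *Gm10222* has a row in the table, with 0 to 4 counts. Counts of unique alignments hold no reads that fit both places, so the levels of the 5 low genes with annotated copies, and in part of *mt-Nd4* and *mt-Co1*, are lower limits. Whether this also holds for *mt-Atp8* is not known. No fold change is given for the 6 low genes.

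**Figure D5:**
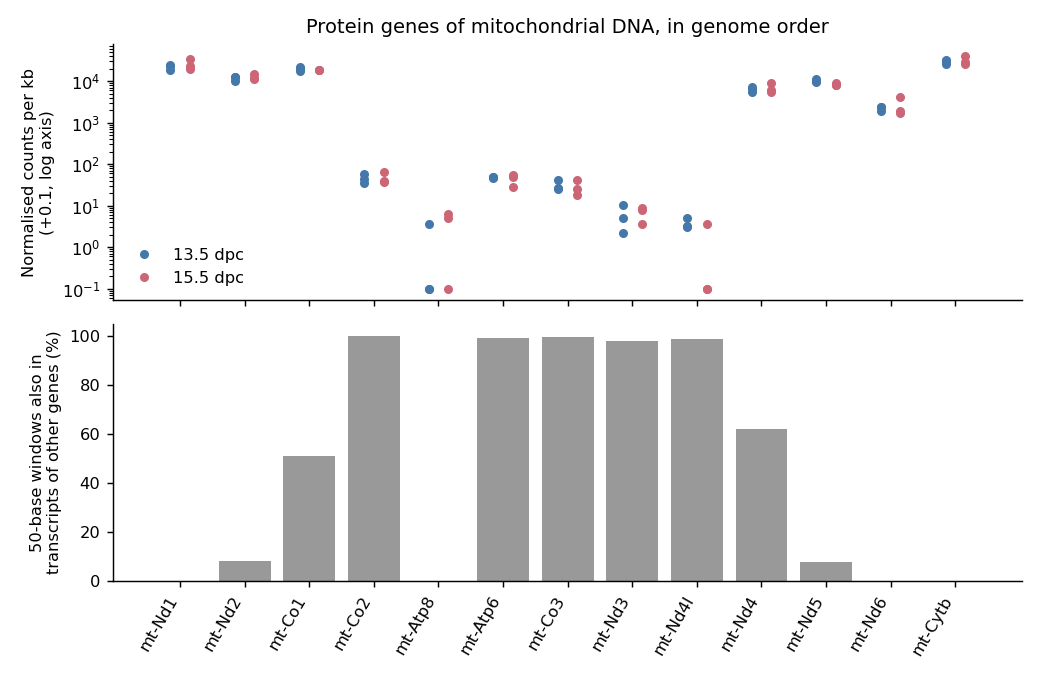
Normalised counts per kilobase (+0.1, log axis) of the 13 mt- protein genes in their order on mitochondrial DNA (top; blue 13.5 dpc, red 15.5 dpc, 3 samples each), and the percent of their 50-base windows that also occur in transcripts of other genes (bottom). From *mt-Co2* to *mt-Nd4l* the levels lie under 100 normalised counts per kb, and 5 of these 6 genes share at least 98.0% of their windows, with *mt-Atp8* at 0%.

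No mt- gene passed the test in either direction with edgeR. At an unadjusted p below 0.05 there were 0 higher and 1 lower of the 10 tested (20.2% and 18.9% of all genes), and DESeq2 called 0 higher and 1 lower (15.2% and 12.2%), in each case *mt-Nd5*. The median log2 fold change of the 7 well-counted genes was 0.13, with 5 above 0, but it was -0.10 without 15.5 dpc replicate 1, -0.18 with the length trend removed and -0.10 with library size as the only scaling, with all 7 below 0 each time. The last setting moved the median of all genes to -0.22. The direction of the mt- genes relative to all genes therefore depended on the setting.

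*mt-Nd5*, a proton-pumping subunit of complex I and the longest of the mt- genes (1824 bases), was the exception in its samples. It gave 20390, 18938 and 17862 normalised counts at 13.5 dpc and 15122, 16370 and 14740 at 15.5 dpc, so that every 15.5 dpc sample lay below every 13.5 dpc sample. The log2 fold change was -0.31 (SE 0.10, edgeR adjusted p = 0.062), and with the length trend removed it was -0.45 and was called lower (edgeR adjusted p = 0.026, next to 15.0% of all genes).

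*mt-Co1*, the catalytic subunit of complex IV, gave 33514, 31008 and 27828 at 13.5 dpc and 29198, 28446 and 28064 at 15.5 dpc, with overlap (-0.11, SE 0.10, edgeR adjusted p = 0.46). *mt-Cytb*, the cytochrome b of complex III, gave 36714, 35271 and 29035 and then 47206, 30237 and 33286 (0.13, SE 0.19, edgeR adjusted p = 0.62). These also overlapped, and so did the remaining genes.

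*mt-Nd1* gave 17713 to 23260 normalised counts at 13.5 dpc and 18848 to 32356 at 15.5 dpc, with a log2 fold change of 0.22. *mt-Nd2* gave 10726 to 13273 and 11689 to 15202 (0.10), and *mt-Nd4* 7446 to 9908 and 7721 to 12530 (0.14). *mt-Nd6*, the only protein gene on the other strand, gave 978 to 1230 and 870 to 2133 (0.21). In each of these 4 genes 15.5 dpc replicate 1 was the highest of all 6 samples, and without it all 4 log2 fold changes were below 0, from -0.30 (*mt-Nd6*) to -0.01 (*mt-Nd2*). The ratio of 15.5 dpc replicate 1 to replicate 2 went down with gene length over the 7 genes (Spearman correlation -0.86, n = 7 genes of the same libraries).

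In levels per kilobase at 13.5 dpc, *mt-Cytb* had 29435 normalised counts per kb, *mt-Nd1* 22132, *mt-Co1* 19925, *mt-Nd2* 11839, *mt-Nd5* 10451, *mt-Nd4* 6363 and *mt-Nd6* 2209. The order changes where shared windows are left out of the length, since *mt-Co1* then stood at 42112 and *mt-Nd4* at 17467 per 1000 windows, against 30752 for *mt-Cytb*.

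The gap between the nuclear and the mitochondrial genes kept its direction in each of the alternative settings. The nuclear median exceeded that of the 7 well-counted mt- genes by 0.47 (log2), and by 0.39 to 0.59 in 23 alternative settings. Settings that change only the scaling move both groups alike and could hardly alter the gap, which was 0.47 in each of them. It was 0.51 with the length trend removed and 0.39 without 15.5 dpc replicate 1. By sample and with the length trend removed, the median nuclear value less the median mt- value, each centred over the 6 samples, was -0.34, -0.29 and -0.18 at 13.5 dpc and 0.41, 0.02 and 0.28 at 15.5 dpc. The stages did not overlap, and 15.5 dpc replicate 2 lay closest to the earlier stage. No p-value is given for these medians, since the genes are not independent replicates.

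Lists of other genes of the pathway had smaller medians than the nuclear subunits. Of 44 assembly factors tested 3 were up-regulated and 0 down-regulated with edgeR (median log2 fold change 0.25), next to 11.6% and 10.7% of all genes. At an unadjusted p below 0.05, 12 were higher and 0 lower (20.2% and 18.9% of all genes), and DESeq2 called 6 higher (15.2%). Those called by edgeR were *Coa3* (0.91, edgeR adjusted p = 0.036) and *Coa7* (0.54, 0.038), which assist complex IV, and *Ecsit* (0.72, 0.027), which assists complex I. The lowest was *Sco1*, a copper carrier for complex IV, at -0.20 (edgeR adjusted p = 0.18). Removal of the length trend gave 5 called higher, next to 18.0% of all genes.

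Of 23 genes that replicate, transcribe or process mitochondrial DNA and its RNA, none was called in either direction with edgeR (median 0.09). The shares of all genes were 11.6% higher and 10.7% lower. At an unadjusted p below 0.05, 2 of the 23 were higher and 0 lower (20.2% and 18.9% of all genes), and DESeq2 called 1 higher (15.2%). The highest was *Hsd17b10*, a subunit of mitochondrial RNase P, at 0.60 (edgeR adjusted p = 0.070), and the lowest *Tfb2m*, a transcription factor of mitochondrial DNA, at -0.19 (edgeR adjusted p = 0.47). Of 14 nuclear regulators none was called with edgeR (median -0.06), next to 11.6% of all genes called higher and 10.7% lower. At an unadjusted p below 0.05, 2 of the regulators were higher (20.2% of all genes), and DESeq2 called 0 (15.2%). Their values ran from -0.27 (*Esrrb*) to 0.68 (*Ppara*), with edgeR adjusted p of 0.53 and 0.24. With the length trend removed 3 of the 23 were called higher and 0 lower (*Polg*, *Tbrg4* and *Hsd17b10*), and 4 of the 14 higher and 0 lower (*Pprc1*, *Gabpb2*, *Esrrg* and *Ppard*), next to 18.0% and 15.0% of all genes.

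Of 21 other mitochondrial genes, namely of the outer membrane, protein import and folding, inner membrane carriers, cristae and prohibitins, 4 were up-regulated and 0 down-regulated with edgeR (median 0.28), next to 11.6% and 10.7% of all genes. They were the adenine nucleotide carrier *Slc25a5* (0.70, edgeR adjusted p = 0.027), the import pore *Tomm40* (0.59, 0.030), the porin *Vdac2* (0.56, 0.035) and the cristae protein *Immt* (0.29, 0.041). The highest value was that of the chaperonin *Hspe1* (0.76, edgeR adjusted p = 0.084) and the lowest that of the carrier *Slc25a4* (-0.10, 0.64). The removal of the length trend gave 9 higher (18.0% of all genes), and the medians of the 4 lists were then 0.14, 0.15, 0.13 and 0.21, against 0.33 for the nuclear subunits.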

How the data were processed

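RNA of 6 wt pancreas samples was enriched for poly(A) and sequenced from a single end with a strand-specific kit. The authors aligned reads to mm10 with GSNAP, counted unique alignments on Ensembl genes with featureCounts 1.4.6 and deposited raw counts without normalisation, with the exon length of each gene. Total counts were 10546028 to 16389237 per sample.

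Of 37224 identifiers, 35449 matched GENCODE names. Counts were tested with edgeR 4.0.16 in R 4.3.3 (filterByExpr, TMM, quasi-likelihood test without covariates, Benjamini-Hochberg adjustment over all genes tested). Normalised counts were brought to a common library size, namely the geometric mean over samples after TMM. Length trends were removed as lowess offsets (span 0.5). Shared windows of 50 bases were sought in GENCODE transcripts on either strand. Alternatives were other scalings and filters, DESeq2 1.42.0, a replicate block, length trends, the study's thresholds, and each sample left out. Length removal by principal transcript, and with each sample left out, was chosen after seeing the data.

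Members and lists were chosen with earlier results of these data known. Named were all mt- genes, complex II, cytochrome c, isoform sets, *Atpif1*, and in complexes I, III, IV and V the highest and lowest fold change and the highest level per kilobase of exon over both stages, and in each list its highest and lowest. Other called genes, *Acta1*, *Atp5a1*, *Atp5k*, *Atp5l*, *Cox7b*, *Cox7b2*, *Myl4*, *Tnnt2* and *Tnnt3* were named after their values were seen. Labels do not say that pools came from separate litters, so p-values measure the spread between these samples. On simulated data with 200 changed genes, of which 194 passed the filter, the test recovered 182 with 11 false calls among 15417 genes. With a simulated length trend it recovered 123 of 195 with 0 false calls, and 181 with 12 once the trend was removed. The simulated trend ran in opposite directions in 15.5 dpc replicates 1 and 2 and was absent from the other samples, so it largely cancelled between stages. The simulation therefore cannot show how often a trend that differs between stages gives false calls.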

Additional observations from a re-analysis of the deposited data

How the results depend on the processing

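The nuclear median stayed above 0 (0.21 to 0.83) and above the mt- median in all 23 alternative settings. Scalings alone move both medians alike and could hardly change their order. No mt- gene was called higher in any setting. The count of 9 nuclear genes called higher (11.6% of all genes) became 45 with DESeq2 (15.2%), 20 without the filter (7.34%), 36 with the length trend removed (18.0%; also with the replicate block, 15.5%), 38 with removal by principal transcript (19.1%), 24 with the study's thresholds (6.30%) and 6 with library size only (7.27%), where *Atp5b*, *Cyc1* and *Uqcrc2* had edgeR adjusted p of 0.079, 0.052 and 0.16. With each sample left out it ran from 2 to 78 (4.54% to 24.7%), where the count of mt- genes called lower ran from 0 to 1. With the length trend removed as well, the nuclear count ran from 6 to 67 (10.6% to 25.0%; 43 without 15.5 dpc replicate 1), the nuclear median from 0.21 to 0.43, nuclear genes called lower from 0 to 1, mt- genes called lower from 0 to 3, and the gap between the medians of the 84 nuclear and 10 mt- genes from 0.48 to 0.71 (0.53 as reported). *Cox6b2* was the nuclear gene called lower with either length removal. Lower calls among mt- genes numbered 1 with upper quartile scaling, DESeq2 and each full length removal, and 2 with library size only.

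The median of the 10 mt- genes, 0.07, changed sign to -0.15 with library size only, to -0.27 with either length removal and to -0.29 with the replicate block added. It ran from -0.18 to 0.20 with each sample left out, and from -0.32 to -0.18 with the length trend removed as well (-0.27, -0.28 and -0.20 without 15.5 dpc replicates 1, 2 and 3). The replicate numbers did not pair the samples (correlations of 0.21, -0.21 and 0.03), and the block called 11 nuclear genes (9.15% of all genes), 7 of the 9 and 4 others, with edgeR adjusted p = 0.073 for *Atp5b* and 0.059 for *Uqcrc2*.

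Single genes changed sign as follows. With library size only, *Cox6b2* was -0.22, *Ndufs1* -0.13, *Sdha* -0.064, *mt-Cytb* -0.10, *mt-Nd1* -0.017, *mt-Nd2* -0.12, *mt-Nd4* -0.10 and *mt-Nd6* -0.039. With the length trend removed they were, for *Cox6b2* -0.38, *mt-Cytb* -0.15, *mt-Nd1* -0.10, *mt-Nd2* -0.18, *mt-Nd4* -0.11 and *mt-Nd6* -0.24, and with the replicate block added -0.38, -0.15, -0.10, -0.18, -0.11 and -0.27. By principal transcript they were -0.38, -0.15, -0.11, -0.18, -0.10 and -0.26, and *Atpif1* was -0.13. *Cox6b2* was -0.026 with upper quartile scaling, -0.020 without the filter, -0.0075 with 10 counts in every sample and -0.0073 with the block. With each sample left out *Cox6b2* ran from -0.14 to 0.18, *mt-Cytb* from -0.083 to 0.27, *mt-Nd1* from -0.026 to 0.39, *mt-Nd2* from -0.015 to 0.19, *mt-Nd4* from -0.10 to 0.29 and *mt-Nd6* from -0.30 to 0.46. A scaling applies to all genes alike. Library size only moved the median of all genes from -0.01 to -0.22, and upper quartile scaling moved it to -0.04. Why values changed in the other settings was not tested. Of 578 comparisons over 34 named genes, 458 kept direction and call, 29 lost the call and 52 gained it.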

Other observations

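Pseudogenes of the nuclear genes, left out above, also held counts. *Cox6c2* gave 577, 566 and 476 normalised counts at 13.5 dpc and 1012, 519 and 713 at 15.5 dpc, against 1127 to 1272 and 1103 to 2278 for *Cox6c*. *Ndufs6b* gave 274, 311 and 263 and then 659, 305 and 421. The ribosomal RNA genes of mitochondrial DNA, which poly(A) enrichment keeps only in part, took 0.0372% to 0.0560% of all counts at 13.5 dpc and 0.0375% to 0.0610% at 15.5 dpc, and these ranges overlapped.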
